A study of Mus musculus with 13 samples.

Results

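The 6 genes Col4a1 to Col4a6 encode the chains of collagen IV, and they were taken by symbol from the 35967 symbols measured in mouse glomeruli. All 6 were in the table. Col4a1 to Col4a5 (5 genes) passed the filter on low values together with 14322 symbols in all, and Col4a6 did not. Glomeruli, the capillary tufts that filter blood in the kidney, were isolated from wildtype Balb/c mice injected intraperitoneally with 2.0 mg of rabbit antibody. Control mice (n = 5) received preimmune IgG, and MN mice received anti-THSD7A IgG and were killed after 1 day (n = 4) or 5 days (n = 4). THSD7A is a podocyte membrane protein and an autoantigen of membranous nephropathy (MN), and transfer of rabbit antibody is a passive model in which the mouse does not make the autoantibody itself. Control mice of both days had been merged into 1 group by the submitters, so that a control of the same day cannot be set against each MN group. The labels give neither the age nor the sex of these mice. The study's methods give both for the mice of its MN model, which were male only.

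Collagen IV is the network-forming collagen of basement membranes. Its chains assemble inside the cell as trimers of set composition: the α1 and α2 chains form the network found in nearly every basement membrane, including the mesangial matrix and the endothelial side of the developing glomerulus, whereas the α3, α4 and α5 chains form the network of the mature glomerular basement membrane, which podocytes make. The α5 chain also pairs with α6 in Bowman's capsule. Inherited defects of α3, α4 or α5 cause Alport syndrome, and the genes lie in head-to-head pairs: Col4a1 beside Col4a2, Col4a4 beside Col4a3 and Col4a6 beside Col4a5.

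In the GRCm39 annotation, Col4a1 lies on the minus strand of chromosome 8 from 11248423 to 11362826, and Col4a2 on the plus strand from 11362471 to 11499287, so that the genes overlap by 356 bases at their 5′ ends. Col4a4 on the minus strand of chromosome 1 from 82426144 to 82564800 overlaps Col4a3, on the plus strand from 82564642 to 82699780, by 159 bases. Col4a6 on the minus strand of the X chromosome from 139948399 to 140257072 and Col4a5 on the plus strand from 140258354 to 140472231 do not overlap, and their start sites lie 1282 bases apart. Strandedness of the libraries is not stated, and reads in an overlap cannot be assigned to 1 gene without it. Of the 6615 bases of the canonical Col4a1 transcript, 312 are found as runs of at least 31 identical bases, on either strand, in Col4a2, and 159 of 10338 bases of Col4a4 are found in Col4a3. In all, 11.5% of Col4a3 shares such runs with other genes, among them Gtf2i, whereas none of Col4a5 or Col4a6 does.

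The start-site windows of RefSeq (GRCm38.p6, 250 bases before the start and 50 after it) are shown for the 3 chain genes called at day 5 (Col4a1, Col4a2 and Col4a5) and for Col4a4, which was not called. Of the 6 genes, 5 matched a window, all but Col4a3. The windows are chr8:11312777-11313076 on the minus strand (Col4a1), chr8:11312555-11312854 on the plus strand (Col4a2), chr1:82586800-82587099 on the minus strand (Col4a4) and chrX:141475169-141475468 on the plus strand (Col4a5). Capitals mark each match to CCAAT or to GGGCGG, the GC box, on either strand, so that ATTGG and CCGCCC are their reverse strands.
Col4a1: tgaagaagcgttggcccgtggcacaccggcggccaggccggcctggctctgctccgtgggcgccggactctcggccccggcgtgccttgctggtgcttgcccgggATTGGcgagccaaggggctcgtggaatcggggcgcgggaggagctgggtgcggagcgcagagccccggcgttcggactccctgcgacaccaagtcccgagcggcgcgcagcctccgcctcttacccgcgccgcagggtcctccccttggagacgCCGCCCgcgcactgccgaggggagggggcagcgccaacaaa
Col4a2: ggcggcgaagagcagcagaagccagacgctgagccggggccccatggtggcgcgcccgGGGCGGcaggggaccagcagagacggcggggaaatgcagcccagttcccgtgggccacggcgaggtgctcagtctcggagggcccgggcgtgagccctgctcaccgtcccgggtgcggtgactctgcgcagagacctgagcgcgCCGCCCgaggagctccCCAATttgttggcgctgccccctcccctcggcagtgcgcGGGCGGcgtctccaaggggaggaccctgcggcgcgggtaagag
Col4a4: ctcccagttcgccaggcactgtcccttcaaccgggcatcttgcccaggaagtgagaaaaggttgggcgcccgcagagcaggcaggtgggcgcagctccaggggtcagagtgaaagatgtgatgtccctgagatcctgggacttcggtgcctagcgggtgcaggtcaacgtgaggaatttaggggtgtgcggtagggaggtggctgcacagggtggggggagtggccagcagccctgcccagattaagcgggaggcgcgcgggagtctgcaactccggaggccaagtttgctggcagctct
Col4a5: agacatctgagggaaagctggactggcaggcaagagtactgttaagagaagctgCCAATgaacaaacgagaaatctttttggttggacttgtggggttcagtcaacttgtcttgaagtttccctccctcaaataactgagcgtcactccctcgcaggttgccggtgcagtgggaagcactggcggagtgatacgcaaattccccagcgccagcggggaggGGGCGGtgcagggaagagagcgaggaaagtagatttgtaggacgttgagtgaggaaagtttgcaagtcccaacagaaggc

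The Col4a1 and Col4a2 windows share 78 bases that are the same sequence read on opposite strands, and the GC box downstream of the start lies in those bases. Each held 1 CCAAT, with 1 GC box in Col4a1 and 3 in Col4a2. Col4a5 also held 1 of each, whereas the Col4a4 window held neither. The window of Col4a6, which is not shown and was not tested for expression, held 1 GC box and 0 CCAAT. Of 32851 windows, 37.4% held CCAAT and 35.7% held GGGCGG, so that either motif is common. TATAAA (13.6% of windows), TAATTA (5.29%) and GCGTGG (15.6%) were in none of the 5 matched windows. The E-box CANNTG, which is not capitalised and is found in 72.3% of windows, occurred once in Col4a4 and once in Col4a5. The Col4a1 and Col4a2 windows had a GC content of 74.0% and 73.7%, higher than in 95.2% and 94.9% of all windows, whereas that of Col4a5 was 52.7%, the median of all windows. These letters are a description of the windows, and binding was not measured.

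Values are TPM, a share of all transcripts, which are corrected for transcript length, so that levels can be compared between genes. In control glomeruli Col4a3 and Col4a4 of the mature network were present at levels that overlapped those of Col4a1 and Col4a2. Col4a3 averaged 301 ± 57.6 TPM (SD, n = 5), Col4a1 291 ± 66.1, Col4a2 183 ± 46.2 and Col4a4 153 ± 26.5. Each of these overlapped its neighbour in that order, although Col4a1 exceeded Col4a2 in 5 of 5 libraries and Col4a2 exceeded Col4a4 in 4 of 5. Col4a5 stood apart below them at 49.8 ± 8.83 TPM. Col4a6 was close to absent at 0.310 ± 0.131 TPM. By mean control level, Col4a3 ranked 483 and Col4a1 506 of 35967 symbols, and Col4a6 ranked 16089.

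The order changed by day 5. Col4a1 became the most abundant chain at 505 ± 85.4 TPM, above every value of Col4a2, which followed at 316 ± 60.3 TPM (SD, n = 4 each). Col4a3 at 296 ± 22.0 TPM came next and overlapped Col4a2, being exceeded by it in 2 of 4 libraries. Col4a4 at 149 ± 12.2 TPM and Col4a5 at 78.6 ± 5.24 TPM followed, each apart from its neighbours. On day 1 Col4a1 (309.6 ± 72.9 TPM) and Col4a3 (267 ± 24.8 TPM) overlapped.

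**Figure D1:**
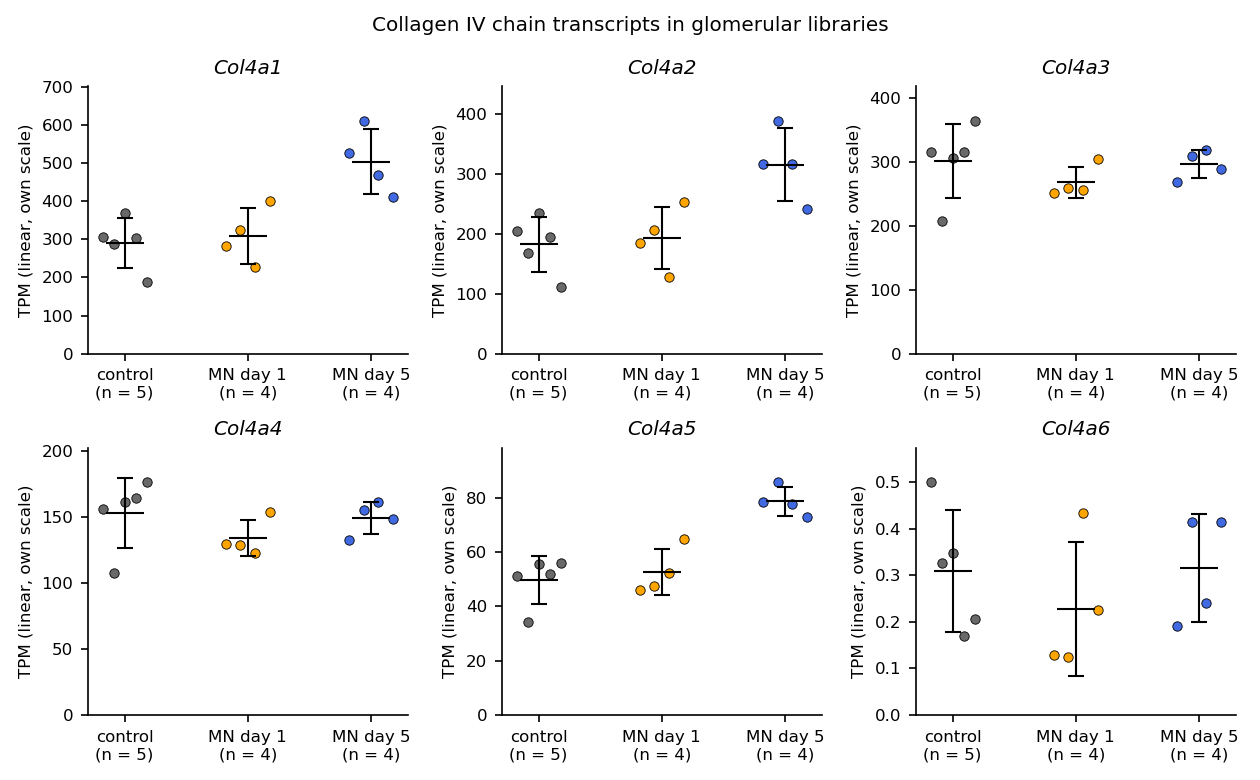
TPM of each collagen IV chain gene (linear axis from 0, a scale per panel) in control, MN day 1 and MN day 5 glomeruli, with 1 point per library and the mean with SD as a bar. All 4 day 5 libraries lie above all 5 controls for Col4a1, Col4a2 and Col4a5, and the groups overlap for Col4a3, Col4a4 and Col4a6.

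The comparison of day 5 MN with control asks which transcripts differ once albuminuria is overt. Both chains of the general network and Col4a5 rose, whereas Col4a3 and Col4a4 did not pass the test. A gene was called where limma gave an adjusted p under 0.05 and a log2 fold change of more than 0.5 in size, fitted on log2(scaled TPM + 0.5) over all 14322 symbols with adjustment over all of them. Of the 5 chains tested, 3 were called, all higher. Over all symbols, 3.21% were called in either direction and 2.42% were called higher.

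Col4a1, which encodes the more abundant of the general chains, measured 307, 287, 369.9, 304 and 187 TPM in control replicates 1 to 5. In day 5 MN it measured 526, 612, 470.0 and 411 TPM in replicates 1 to 4. Every day 5 library was above every control, with control replicate 5 the lowest of all. The log2 fold change was 0.85 (SE 0.19, 95% interval 0.43 to 1.27, 1.80-fold), with an adjusted p of 0.0191 in limma. The call was lost without MN day 5 replicate 1 (log2 fold change 0.80, adjusted p = 0.0654) and without MN day 5 replicate 2 (0.74, adjusted p = 0.0762), and it held when any 1 of the other 11 libraries was left out.

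Col4a2, which encodes the α2 chain, measured 205, 167, 234, 194 and 112 TPM in control replicates 1 to 5 and 316, 388, 317 and 240.8 TPM in day 5 replicates 1 to 4. The groups did not overlap, but MN day 5 replicate 4 was only just above control replicate 3. The log2 fold change was 0.85 (SE 0.22, 95% interval 0.37 to 1.33, 1.80-fold), with an adjusted p of 0.0403 in limma. This call lay close to the threshold and held in 4 of the 13 fits that left out 1 library. It was lost without control replicates 1, 2, 4 or 5, MN day 1 replicates 1 or 2, or MN day 5 replicates 1, 2 or 3, with log2 fold changes over all 13 fits of 0.69 (without control replicate 5) to 0.98 and adjusted p values of 0.0214 to 0.133 (the highest without MN day 5 replicate 2).

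Col4a5, which encodes the α5 chain of both the mature glomerular network and Bowman's capsule, measured 51.2, 34.4, 55.4, 52.0 and 55.8 TPM in control replicates 1 to 5. In day 5 MN it measured 78.5, 85.6, 77.5 and 72.9 TPM in replicates 1 to 4. The lowest day 5 library was well above the highest control, and control replicate 2 stood below the other controls. The log2 fold change was 0.71 (SE 0.14, 95% interval 0.40 to 1.02, 1.63-fold), with an adjusted p of 0.00984 in limma. The call held in all 13 fits that left out 1 library, where the log2 fold change was 0.57 to 0.77. Without control replicate 2, where Col4a5 was lowest, it was 0.57 (adjusted p = 0.00498).

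Col4a3, which encodes the chain that carries the Goodpasture autoantigen, measured 315, 206, 305, 314 and 364 TPM in control replicates 1 to 5 and 269, 308, 318 and 288 TPM in day 5 replicates 1 to 4. Col4a4, the partner of Col4a3 in its trimer, measured 156, 107, 161, 164 and 176 TPM in the controls and 133, 155, 161 and 148 TPM at day 5. For both genes the day 5 values lay inside the range of the controls. The log2 fold change of Col4a3 was 0.031 (95% interval −0.26 to 0.32, adjusted p = 0.938 in limma) and that of Col4a4 was 0.016 (−0.26 to 0.29, adjusted p = 0.971). These intervals leave out a change of the size seen for Col4a1, Col4a2 or Col4a5, whose estimates are all above 0.7. Their sign is not settled, since both were below 0 without control replicate 2 (−0.11 for Col4a3 and −0.12 for Col4a4), and without any scaling of TPM or after quantile normalization.

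Col4a6, the partner of α5 in Bowman's capsule, was listed at 0.499, 0.326, 0.349, 0.169 and 0.205 TPM in the controls and at 0.192, 0.415, 0.241 and 0.415 TPM at day 5. It was not tested, and the groups overlapped. The summed markers of parietal epithelium, the cells of Bowman's capsule, ranged from 124 to 161 TPM in controls and from 100.2 to 132 TPM at day 5. All 6 markers had TPM above 0. At day 5 limma called 1 higher and 1 lower, against 3.21% of all symbols called in either direction. An unadjusted p under 0.05 was found for 4 of the 6, against 20.1% of all symbols. The part of parietal cells in the rise of Col4a5 was not tested.

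Not overlapping with the controls on the higher side, as for Col4a1, Col4a2 and Col4a5, was seen for 5.07% of all tested symbols at day 5.

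On day 1 of MN, when albuminuria is minimal, 0 of the 5 chains were called by limma, and 0 had an unadjusted p under 0.05. Over all symbols 0.0908% were called, and 0.908% were higher in every day 1 library than in every control. Col4a1 measured 284, 324, 228 and 402 TPM in replicates 1 to 4 and Col4a2 185, 206, 128 and 253 TPM. Col4a3 measured 251, 259, 255 and 304 TPM, Col4a4 129.7, 129, 123 and 154 TPM, and Col4a5 46.1, 47.6, 52.3 and 64.7 TPM. All 5 genes overlapped the controls, and MN day 1 replicate 4 was the highest of its group for each of them. Log2 fold changes were 0.14 for Col4a1 (95% interval −0.28 to 0.56), 0.13 for Col4a2 (−0.35 to 0.61), −0.11 for Col4a3 (−0.40 to 0.19), −0.13 for Col4a4 (−0.41 to 0.14) and 0.14 for Col4a5 (−0.18 to 0.45), with adjusted p values of 0.706 to 0.859. The day 5 estimates of Col4a1, Col4a2 and Col4a5 (0.85, 0.85 and 0.71) lay above the upper bounds of these intervals (0.56, 0.61 and 0.45). Their own day 5 intervals start below those bounds, however, at 0.43, 0.37 and 0.40, and none of the chains was called between the days. Col4a6 was listed at 0.129, 0.125, 0.433 and 0.225 TPM.

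Between the MN days, 0 of the 5 chains passed the adjusted threshold of limma, whereas 3 had an unadjusted p under 0.05, as did 15.5% of all symbols. These were Col4a1 (log2 fold change 0.71, SE 0.20, adjusted p = 0.0997 in limma), Col4a2 (0.72, SE 0.23, adjusted p = 0.151) and Col4a5 (0.57, SE 0.15, adjusted p = 0.0707). Col4a1 and Col4a5 were higher in every day 5 than in every day 1 library, as were 6.12% of all symbols. Col4a2 overlapped, since MN day 5 replicate 4 (240.8 TPM) was below MN day 1 replicate 4 (253 TPM). Col4a3 (0.14, 95% interval −0.17 to 0.45) and Col4a4 (0.15, −0.14 to 0.44) had adjusted p values of 0.722 and 0.672. Over all symbols 1.81% were called between the days. Col4a1 passed without control replicate 5 (adjusted p = 0.0387), and Col4a5 passed without control replicate 2 (adjusted p = 0.00858) and without MN day 1 replicate 4 (adjusted p = 0.0488). The day 1 and day 5 comparisons share their control libraries, and so are not independent of each other.

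**Figure D2:**
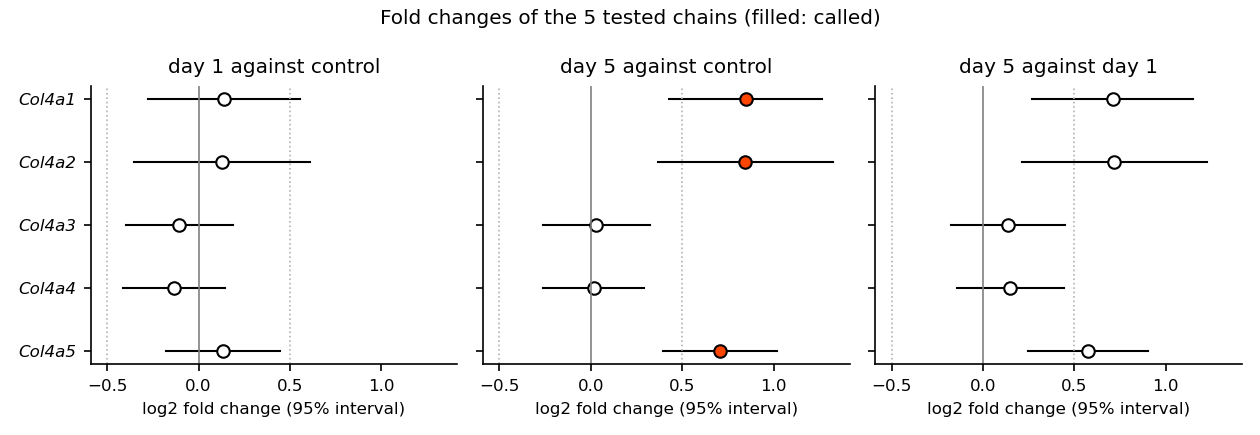
Log2 fold change of the 5 tested chains (points) with 95% intervals (lines) in the 3 comparisons, from limma, with dotted lines at a log2 fold change of 0.5 in either direction. Filled points, which were called, are Col4a1, Col4a2 and Col4a5 at day 5 against control, where Col4a3 and Col4a4 lie at 0.031 and 0.016.

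The balance of the chains moved toward the general network at day 5, though not in every library. It is given in 2 forms within a library, without a test because each is a score over chosen genes. The first, the mean log2 level of Col4a1 and Col4a2 minus that of Col4a3, Col4a4 and Col4a5, was 0.78 ± 0.51 in controls, 0.95 ± 0.29 on day 1 and 1.38 ± 0.23 on day 5, and all 3 ranges overlapped. The second was the ratio of summed TPM of Col4a1 and Col4a2 to that of Col4a3, Col4a4 and Col4a5. This ratio was 0.979, 1.30, 1.16, 0.940 and 0.502 in control replicates 1 to 5, a mean of 0.976 ± 0.303. In MN it was 1.10, 1.22, 0.8288 and 1.25 on day 1 (1.10 ± 0.193) and 1.75, 1.82, 1.41 and 1.28 on day 5 (1.57 ± 0.262). The day 5 range lay above that of day 1 but met that of the controls, since control replicate 2 (1.30) exceeded MN day 5 replicate 4 (1.28).

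Counted as shares of the summed collagen IV TPM, Col4a1 and Col4a2 together made up 48.3% ± 8.94 in controls, 52.0% ± 4.71 on day 1 and 60.7% ± 4.05 on day 5 (SD, n = 5, 4 and 4). The share of Col4a3 was 30.9% ± 5.84 in controls and 22.2% ± 2.44 at day 5, and that of Col4a4 was 15.7% ± 2.42 and 11.2% ± 1.39, in both cases without overlap. The total itself was larger at day 5. The summed TPM was 978 ± 128 in controls, 957 ± 165 on day 1 and 1344 ± 159 on day 5, and every day 5 library (1161 to 1549 TPM) exceeded every control (803 to 1127 TPM). Col4a5 took 5.09% ± 0.711 in controls and 5.87% ± 0.317 at day 5, with overlap.

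**Figure D3:**
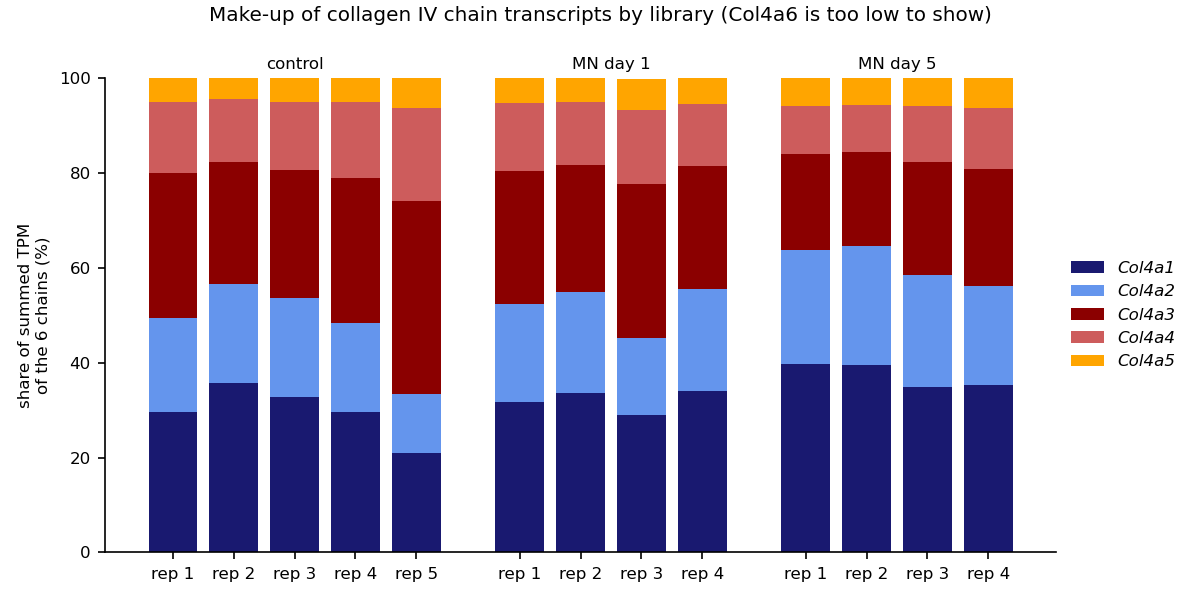
Share (%) of each chain in the summed collagen IV TPM, 1 bar per library. The blue shares of Col4a1 and Col4a2 add up to 33.4% to 56.6% in controls and to 56.1% to 64.6% at day 5, with the lowest sum in control replicate 5.

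Within the pairs Col4a1 with Col4a2 and Col4a3 with Col4a4 the ratio differed little between libraries. Col4a1 to Col4a2 was 1.61 ± 0.0870 in controls, 1.62 ± 0.111 on day 1 and 1.61 ± 0.101 on day 5. Col4a3 to Col4a4 was 1.96 ± 0.0747, 2.00 ± 0.0602 and 1.98 ± 0.0336. Groups overlapped in all 3 comparisons of both ratios. The ratio of Col4a5 to Col4a6 varied far more, at 189 ± 95.2, 286 ± 117 and 278 ± 107, with Col4a6 too low for the ratio to be read closely. Over the 13 libraries, Pearson's r of the log2 levels was 0.99 between Col4a1 and Col4a2 and 0.98 between Col4a3 and Col4a4, and after the group means were removed both were 0.98. The libraries share their preparation and scaling, and the genes of each pair share the overlapping bases given above.

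Col4a5 did not keep a fixed ratio to the other chains of its network. Col4a3 to Col4a5 was 6.17, 6.001, 5.51, 6.05 and 6.52 in control replicates 1 to 5, 5.44, 5.45, 4.87 and 4.70 on day 1, and 3.42, 3.60, 4.11 and 3.95 on day 5. The 3 groups did not overlap, with day 1 between the controls and day 5 even though none of the chains was called on day 1. The gap on day 1 was narrow, from 5.45 (highest day 1 value) to 5.51 (lowest control). The ratios of this paragraph were not among those planned. How often ratios of other genes do not overlap was not computed. Group means were 6.05 ± 0.362, 5.12 ± 0.387 and 3.77 ± 0.315. Col4a4 to Col4a5 behaved alike, at 3.08 ± 0.102, 2.56 ± 0.234 and 1.90 ± 0.183, again with no overlap in any of the 3 comparisons. Control replicate 2, in which Col4a3, Col4a4 and Col4a5 were all lowest, had an ordinary ratio. By contrast, Col4a1 to Col4a5 was 6.04 ± 1.80 in controls and 6.39 ± 0.669 at day 5, with overlap, whereas Col4a1 to Col4a3 was 1.01 ± 0.329 in controls and 1.71 ± 0.302 at day 5, without overlap.

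Within groups, however, Col4a5 varied with Col4a3 and Col4a4. With group means removed, r over the 13 libraries was 0.90 with Col4a3 and 0.89 with Col4a4, but 0.26 with Col4a1 and 0.28 with Col4a2. By ranks the split was less sharp, with Spearman's rho of 0.79 and 0.81 against 0.43 and 0.45. With the group means kept, r was 0.60 with Col4a3 and 0.74 with Col4a1. Col4a1 and Col4a3 had an r of 0.11 with the group means kept and 0.0021 with them removed, where Spearman's rho was 0.25.

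**Figure D4:**
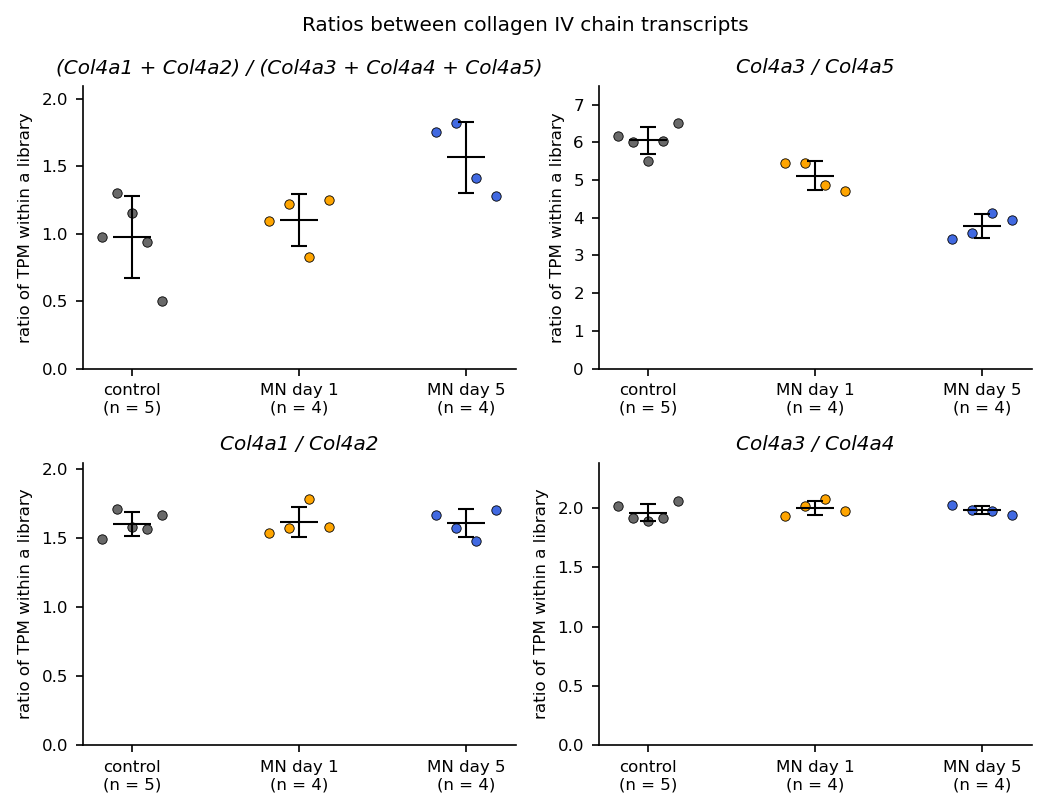
Ratios of TPM within a library (linear axes from 0), 1 point per library with the mean and SD as a bar. The mean ratio of Col4a3 to Col4a5 is 6.05, 5.12 and 3.77 without overlap, although day 1 (up to 5.45) nearly meets the controls (from 5.51). Col4a1 to Col4a2 and Col4a3 to Col4a4 overlap in all groups, and the summed ratio overlaps between control and day 5.

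In RNA of whole glomeruli, fewer cells of a type and less RNA per cell cannot be told apart. The markers of the cells that make each network are therefore given beside the chains. For podocytes the study reports an unaltered number in MN mice by DACH1 staining, a count made on kidney sections and not on these libraries. The 12 podocyte markers summed to 8212 to 11054 TPM in controls, 9179 to 11139.6 on day 1 and 10042 to 10740.2 on day 5. At day 5 1 of them was called higher and 1 lower, against 3.21% of all symbols called in either direction. An unadjusted p under 0.05 in limma was found for 6 of the 12, against 20.1% of all symbols. Log2 fold changes were above 0 for 6 and below 0 for 6, with a median of −0.086. Nphs1, which encodes nephrin of the slit diaphragm, had a log2 fold change of −0.18 at day 5 (adjusted p = 0.479 in limma). Thsd7a, the gene of the antibody's target, which is outside the rule for named genes and the marker list, was called lower (log2 fold change −0.79, adjusted p = 0.0112). The 12 endothelial markers summed to 11388 to 14541 TPM in controls and 12117 to 14985 at day 5. Limma called 0 of them, with 4 at an unadjusted p under 0.05. A log2 fold change above 0 was found for 11 of the 12, with a median of 0.20 against −0.0032 over all tested symbols. Pecam1 had a log2 fold change of 0.24 (unadjusted p = 0.00773, adjusted p = 0.0881 in limma). The 10 mesangial markers summed to 2832 to 4136 TPM in controls and 3801 to 4210.2 at day 5. Limma called 0 of them, with 1 at an unadjusted p under 0.05. A log2 fold change above 0 was found for 8 of the 10, with a median of 0.098. Pdgfrb, which was not the marker under 0.05, had the lowest value of the list, −0.17 (unadjusted p = 0.214, adjusted p = 0.528 in limma). All of these markers had TPM above 0 in every group. The part of cell make-up in the rise of the chains was not tested.

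The control libraries with the extreme chain values also differed in their markers. Control replicate 2, lowest in Col4a3, Col4a4 and Col4a5, had the lowest podocyte sum (8212 TPM, against 10212 to 11054 in the other controls). Control replicate 5, lowest in Col4a1 and Col4a2, had the lowest mesangial sum (2832 TPM) and the highest sum of the 12 proximal tubule markers (8881 TPM, against 2403 to 4076 in the other controls, 4297 to 7666 on day 1 and 3171 to 3831 on day 5). The 10 markers of loop, distal tubule and collecting duct summed to 275 to 557 TPM in controls, 543 to 988 on day 1, where 3 of 4 libraries exceeded every control, and 374 to 510.3 on day 5. Of the 9 tested, 1 was called higher on day 1 and 3 were called lower in day 5 against day 1. Over all symbols 0.0908% and 1.81% were called in these comparisons. On day 1 all 9 were above 0 (median 0.63), as were all 12 of the proximal tubule (0.73, 0 called). Between the days all 9 were below 0 (−0.96), as were all 12 (−0.69, 0 called). On day 1 an unadjusted p under 0.05 in limma was found for 5 of 9 and 8 of 12, against 12.6% of all symbols. Both tubular sums were also lower in every day 5 than in every day 1 library. The part of tubular cells in the day 1 and between-day values of the chains was not tested. The sums for smooth muscle and fibroblasts (391 to 699 TPM in controls and 571 to 1103 at day 5) and for leukocytes (28.4 to 49.8 TPM and 25.4 to 57.0) overlapped between control and day 5. In each of these 2 lists, 6 of 7 tested markers had a log2 fold change above 0 at day 5, and 0 were called. The list medians were 0.46 and 0.42. Slc34a1, the phosphate carrier of the proximal tubule, had log2 fold changes of 0.76 on day 1 and 0.027 on day 5 (adjusted p = 0.331 and 0.980). Without both libraries, an alternative chosen after the data were seen, the log2 fold change at day 5 was 0.66 for Col4a1 (adjusted p = 0.0851), 0.60 for Col4a2 (adjusted p = 0.169) and 0.61 (adjusted p = 0.00962) for Col4a5, so that Col4a5 alone of the 3 kept its call.

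The genes that fold, modify and export collagen IV were for the most part not called at day 5. Of 22 listed, 21 were tested and 1 was called, higher, with a median log2 fold change of 0.13 against −0.0032 over all tested symbols. Over all symbols 3.21% were called at day 5 and 2.42% were called higher. In this list 18 log2 fold changes were above 0 and 3 below. An unadjusted p under 0.05 in limma was found for 5, against 20.1% of all symbols. The called gene was Plod2, a lysyl hydroxylase, which rose from 92.5 ± 8.59 to 148 ± 14.7 TPM (log2 fold change 0.71, SE 0.13, adjusted p = 0.00625 in limma).

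Of 6 crosslinking enzymes, 5 were tested and Loxl2 was called, against 2.42% of all symbols called higher. The list had a median of 0.47 with all 5 above 0. An unadjusted p under 0.05 in limma was found for 4, against 20.1% of all symbols. Loxl2, a lysyl oxidase that crosslinks collagen IV, measured 94.1, 65.7, 97.8, 103.4 and 101 TPM in controls, 106, 112, 105 and 149 on day 1, and 198, 196, 173 and 154 on day 5. Its 3 groups did not overlap. Its log2 fold change at day 5 was 1.01 (SE 0.15, adjusted p = 0.00131 in limma). Lox, a related oxidase at 1.82 ± 0.123 TPM in controls and 2.75 ± 0.162 at day 5, was called between the MN days (0.70, adjusted p = 0.0428) but not against control (0.52, adjusted p = 0.0717).

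Among the other proteins of basement membranes, 3 of 19 tested were called, all higher, against 2.42% of all symbols called higher. The median log2 fold change was 0.31 with all 19 above 0. An unadjusted p under 0.05 in limma was found for 7, against 20.1% of all symbols. Nid2, which encodes nidogen-2, a linker of laminin to collagen IV, measured 71.1, 65.0, 55.6, 61.2 and 49.5 TPM in controls and 107, 112, 113 and 109 at day 5 (log2 fold change 0.91, SE 0.086, adjusted p = 5.03e-05 in limma). Sparc, a secreted binder of collagen, rose from 1354 ± 46.7 to 2060.2 ± 98.2 TPM (0.64, SE 0.055, adjusted p = 3.02e-05). Lamc1, the laminin γ1 chain, rose from 69.6 ± 4.66 to 101 ± 5.76 TPM (0.58, SE 0.081, adjusted p = 0.000821). The other chains of the mature glomerular laminin, Lama5 and Lamb2, had log2 fold changes of 0.039 and 0.025 (adjusted p = 0.750 and 0.866). The directions of Lama5 and Lamb2 are not settled: without control replicates 2 and 5 both were below 0, and Lamb2 was also below 0 without scaling and after quantile normalization.

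Of 11 receptors for collagen IV, 10 were tested and limma called 0 at day 5, although 5 genes were at an unadjusted p under 0.05, as were 20.1% of all symbols, and the list median was 0.19. Itgb1, the shared β1 integrin chain, had an adjusted p of 0.00787 with a log2 fold change of 0.36, under the size limit of 0.5. Its partners Itga1, of the collagen-binding integrin, and Itga3, of the laminin-binding integrin of podocytes, had 0.20 (adjusted p = 0.170) and 0.11 (adjusted p = 0.413). Of 18 genes for degradation and its inhibitors, 13 were tested, with a median of 0.21, 11 above 0 and 2 below. An unadjusted p under 0.05 was found for 6. Limma called 3, all higher, against 2.42% of all symbols called higher. These were Adam15, a metalloproteinase (0.52, adjusted p = 0.0152), Ctss, the protease cathepsin S (0.71, adjusted p = 0.0293), and Timp1, an inhibitor of metalloproteinases (0.99, adjusted p = 0.0475). Leaving out 1 library at a time kept the call of Loxl2, Lamc1, Nid2, Sparc and Plod2 at day 5 in 13 of 13 fits, but that of Adam15 in 9, of Ctss in 7 and of Timp1 in 3. On day 1, limma called 0 genes of these 5 lists, with 6 of the 68 tested at an unadjusted p under 0.05, against 12.6% of all symbols.

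Of 38 chain genes of other collagens, 24 were tested and 3 were called higher at day 5, against 2.42% of all symbols. The median of the list was 0.17, with 16 above 0 and 8 below. An unadjusted p under 0.05 in limma was found for 7, against 20.1% of all symbols. Col5a3, which encodes the α3 chain of the fibril-forming collagen V, measured 0.826, 1.13, 0.832, 0.640 and 0.731 TPM in controls, 0.970, 0.848, 0.973 and 1.11 on day 1, and 10.6, 12.9, 7.59 and 3.77 on day 5. All day 5 values lay above all others, at a level far below that of the main collagen IV chains. Its log2 fold change on the scale with the added 0.5 was 2.71 (SE 0.28, adjusted p = 7.96e-05 in limma). Col5a2, a partner chain of collagen V, had 0.55 (adjusted p = 0.00810), under the size limit at 0.46 without control replicate 5. Col13a1, a transmembrane collagen, had 0.60 (adjusted p = 0.0463), a call kept in 3 of 13 fits that left out 1 library.

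**Figure D5:**
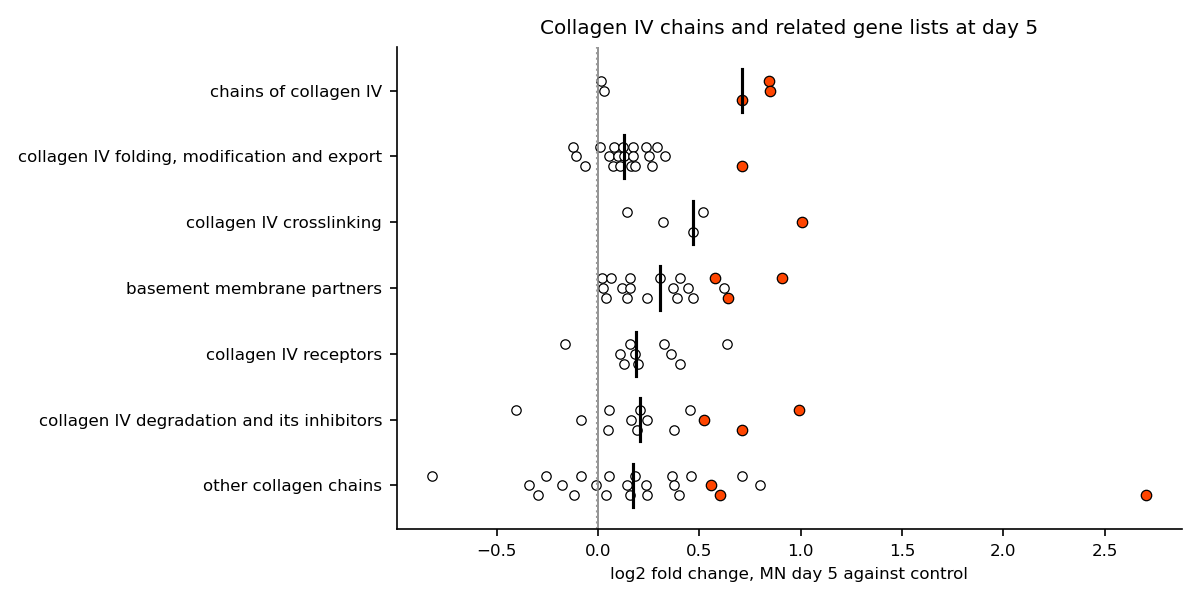
Log2 fold change of each tested gene at day 5 against control (points), by list, with called genes filled, the list median as a vertical bar and the median of all tested symbols as a dotted line. Col4a1 and Col4a2 near 0.85 and Col4a5 at 0.71 are filled while Col4a3 and Col4a4 lie near 0, and Col5a3 at 2.71 is the farthest point.

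Likeness to the chains was taken across the 13 libraries with the group means kept, so that changes between groups enter it. The genes whose level followed each network most closely are given as a description. For the mean log2 level of Col4a1 and Col4a2 they were Ltbp1 (r = 0.92), a binding protein of latent TGF-β, Hk1 (0.92), a hexokinase, Cdkn2c (0.92), a cyclin-dependent kinase inhibitor, Ptgfrn (0.91) and 2310022B05Rik (0.91). For the mean of Col4a3, Col4a4 and Col4a5 they included Npnt (r = 0.94), which encodes nephronectin of the glomerular basement membrane, Pcsk6 (0.91), a proprotein convertase, Ube2l3 (0.89), a ubiquitin-conjugating enzyme, and Sgcb (0.88), a sarcoglycan. Col4a5 ranked 465 in likeness to the first pair, with r = 0.73.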

How the data were processed

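RNA-seq of 13 libraries of isolated mouse glomeruli was analysed (5 control, 4 MN day 1, 4 MN day 5). Libraries of a group came from separate mice, per the study's methods. Per the labels and the study's methods, the authors trimmed reads with Trimmomatic 0.39, checked them with FastQC 0.11.9 and pseudoaligned them with kallisto 0.46.2 to GRCm39. The deposited values are TPM per gene symbol, made by the authors, and were used as deposited. The depth behind each value is unknown, since TPM does not keep it, and the number of libraries limits the precision. TPM was divided by median-of-ratios factors (0.955 to 1.04), and log2(scaled TPM + 0.5) of the 14322 symbols with at least 1 TPM in at least 4 libraries was fitted with limma 3.58.1 (R 4.3.3, eBayes with a trend) over all 13 libraries, with Benjamini-Hochberg adjustment over all tested symbols per comparison. This replaces the study's count test, since TPM are not counts. The added 0.5 understates changes of low genes. Self-tests on simulated data were run. Genes were called at an adjusted p under 0.05 where the log2 fold change exceeded 0.5 in size. Levels, SDs, ranges and ratios are of unscaled TPM.

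Named genes were the 6 chains, pathway-list genes called in any comparison, Lama5, Lamb2, Lamc1, Itga1, Itga3, Itgb1, called genes of other collagens, the 5 genes most correlated with each network, and Nphs1, Pecam1, Pdgfrb and Slc34a1. Of the genes this rule takes, 2 are not reported here. The members, gene lists and marker lists were chosen with earlier results of these data known, and no list was tested as a set. Alternatives were other pseudocounts, scalings, filters, variance models, a replicate block, array weights and leaving out libraries. Gene positions and transcripts are from GENCODE (GRCm39), and start-site windows from RefSeq (GRCm38.p6).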

Additional observations from a re-analysis of the deposited data

Results flagged for a closer look

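Among 21 groups of chain values examined for a library far from the rest, 3 had one, where chance gives about 1 in 20 for a single group. The groups are not independent, since the chains vary together and the balance is computed from them, so the count cannot be set against that rate. For Col4a3 and Col4a4 the flagged library was only just past the limit. Col4a3 measured 304 TPM in MN day 1 replicate 4, against 251 to 259 in the other day 1 libraries. Col4a4 measured 107 TPM in control replicate 2, against 156 to 176 in the other controls. Col4a5 measured 34.4 TPM in the same library, against 51.2 to 55.8.

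Effects that differed between day 5 and day 1, by the limma test of day 5 against day 1, were found for 6 genes. These were 4 of 68 tested genes of the pathway lists and 2 of 24 tested other collagens. Over all symbols 259 were called between the days, which is 1.81%. The day 5 effect exceeded the day 1 effect by a log2 value of 0.60 for Plod2 (adjusted p = 0.0425), 0.70 for Lox (adjusted p = 0.0428), 0.71 for Nid2 (adjusted p = 0.000532), 0.55 for Sparc (adjusted p = 0.000138), 0.57 for Col5a2 (adjusted p = 0.0191) and 2.52 for Col5a3 (adjusted p = 0.000304). The calls of Plod2 and Lox each lay close to the threshold and held in 4 and 3 of the 13 fits that left out 1 library. None of the 5 tested chains was among these genes.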

How the results depend on the processing

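Col4a5 at day 5 against control kept its call under all 11 other settings (log2 fold change 0.61 to 0.77) and in all 13 fits without 1 library. The causes of the changes below were not tested. Col4a1 at day 5 was below the threshold at 0.71 with the replicate block (adjusted p = 0.0755) and at 0.66 without control replicates 2 and 5, and ranged from 0.71 to 0.95 when 1 library was left out. Col4a2 at day 5 was below it at 0.78 after quantile normalization, 0.85 without a filter (more genes tested) and without the variance trend, 0.69 with the block (adjusted p = 0.135) and 0.60 without control replicates 2 and 5 (0.69 to 0.98 without 1 library). Col4a3 and Col4a4 at day 5 turned to −0.0043 and −0.019 without scaling, −0.027 and −0.012 after quantile normalization, −0.037 and −0.067 without control replicates 2 and 5, and ranged from −0.11 to 0.12 and from −0.12 to 0.084 without 1 library. On day 1, Col4a1 turned to −0.050 and Col4a2 to −0.11 without control replicates 2 and 5, and Col4a2 to −0.024 with the block (−0.023 to 0.32 without 1 library). Between days, Col4a1 passed at 0.71 without control replicates 2 and 5 (0.56 to 0.84 without 1 library), and Col4a5 passed at 0.58 without scaling, 0.57 in a fit of the 2 groups, 0.57 with array weights and 0.57 without control replicates 2 and 5 (0.51 to 0.67 without 1 library). The chain balance, as the difference of mean log2 levels, differed from control by a log2 value of 0.17 on day 1 (−0.048 to 0.31 without 1 library, lowest without control replicate 5) and 0.60 on day 5 (0.38 to 0.71). As the log2 ratio of summed TPM the differences were 0.22 and 0.74.

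The count of called genes on day 1 was 13, but 6 without a filter, 7 without the trend, 2 in a fit of the 2 groups, 149 with the replicate block, 72 without control replicates 2 and 5, and 3 to 218 without 1 library (218 without control replicate 5). Between days it was 259, but 153 with a filter in every library, 414 in a fit of the 2 groups, 492 without control replicates 2 and 5, and 150 to 437 without 1 library. At day 5 against control it was 460 (326 to 474 without 1 library). Replicate numbers did not pair the libraries, since deviations of same-numbered libraries correlated at −0.056 to 0.091. Lama5 at day 5 was −0.0060 without control replicates 2 and 5, and Lamb2 was −0.0052 there, −0.010 without scaling and −0.046 after quantile normalization. With 4 or 5 libraries per group, and with read depth unknown, changes of the chains smaller than their intervals could not be told from 0. The alternative without control replicates 2 and 5 was chosen after the data were seen.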
